A study of Gallus gallus with 40 samples.

Results

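The chorioallantoic membranes of male and female chicken embryos were compared at day 11 of incubation, using the 10 male and the 10 female libraries of that day, which are 20 of the 40 libraries of the series. All embryos were Ross 308 broilers, a fast-growing meat line, from eggs kept for 3 days at 16 °C and then incubated for 11 days, and each library came from a different embryo. Sex was read from a piece of the embryo's neck by a molecular test, independently of the membrane RNA. The other 20 libraries, 10 males and 10 females at day 15, were handled in the same way and serve here as separate embryos in which the differences of day 11 were looked at again. Whole membranes were sequenced as bulk mRNA, so fewer cells of a type and less RNA per cell cannot be told apart.

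The chorioallantoic membrane lines the eggshell, where its capillaries exchange gas and its epithelium takes up shell calcium and handles allantoic fluid. Male birds carry a pair of Z chromosomes, and females carry a single Z and a small W. Birds lack the chromosome-wide silencing by which mammals even out their X, so dosage of the Z is known to be balanced gene by gene and only in part. A few W genes still have a partner on Z, their gametolog, from which they diverged.

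The depth implied by the values was 30.8 to 39.3 M reads in males and 28.3 to 40.2 M in females. Mitochondrial genes held 8.55 to 11.1% of summed FPKM (fragments per kilobase of gene, normalised to library size) in males and 8.47 to 12.8% in females. Haemoglobin genes held 3.40 to 5.23% in males and 2.84 to 6.84% in females, so both ranges were wider in females. Markers of the labelled tissue were present, and their summed levels overlapped between the sexes. The summed level of 17 epithelial markers was 3651 to 4826 FPKM in males and 3725 to 4546 FPKM in females. That of 17 endothelial markers was 985 to 1247 FPKM in males and 836 to 1217 FPKM in females, and that of 20 fibroblast markers was 7986 to 10998 FPKM in males and 6310 to 10390 FPKM in females.

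Sex differences at day 11 lay mostly on the sex chromosomes. Of 15875 genes tested, 526 differed (3.31%) by limma at a Benjamini-Hochberg adjusted p below 0.05, 394 of them higher (2.48%) and 132 lower (0.831%) in males. On the autosomes 13 of 13935 genes were higher in males (0.0933%) and 43 were lower (0.309%). On Z 358 of 679 genes were higher in males (52.7%), 13 were lower (1.91%) and 308 were not called. Of 49 W genes 48 were lower in males (98%) and 1 was higher (2.04%). None of 16 mitochondrial genes and none of 131 genes on unplaced scaffolds was called at that threshold by limma; at an unadjusted p below 0.05 there were 0 mitochondrial genes, and 6 unplaced genes higher and 3 lower in males. A log2 fold change here is male minus female on the scale log2(scaled FPKM + 0.1), so changes of low genes come out smaller than they are.

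**Figure D1:**
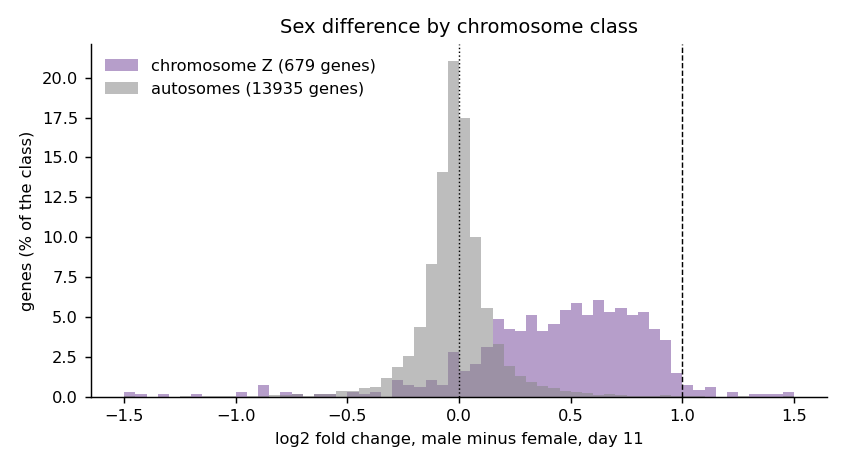
Distribution of the log2 fold change, male minus female at day 11 (x axis, values beyond ±1.5 placed in the end bins), as a percentage of the genes of each class (y axis), for 679 Z genes and 13935 autosomal genes; the dotted line marks equal levels and the dashed line a log2 fold change of 1. Autosomal genes lie around a median of -0.02, and Z genes spread from about equal levels to 1 around a median of 0.50.

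More Z genes were higher in males than not, and the typical difference was smaller than the ratio of gene copies between the sexes. Among the 632 Z genes with a mean of at least 1 FPKM in the higher sex, the median log2 fold change was 0.50, a ratio of 1.42, with quartiles of 0.24 and 0.72. The median of 12592 autosomal genes chosen in the same way was -0.02, with quartiles of -0.08 and 0.05. The log2 fold change of 84.8% of these Z genes exceeded 0.13, the autosomal 90th percentile.

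The genes did not share a single degree of difference. For 350 of the 632 genes the 95% interval of the log2 fold change lay wholly between 0 and 1. For 123 genes the interval held 1 and not 0, and for 129 it held 0 and not 1. It held both for 9 genes, lay above 1 for 1 gene and below 0 for 20. Detection followed level: the share called higher in males was 7.69% of the 65 Z genes below 1 FPKM, 49.1% of 320 genes from 1 to 10 FPKM, 65.4% of 272 genes from 10 to 100 FPKM and 81.8% of 22 genes at 100 FPKM or more. The median log2 fold changes of these classes were 0.46, 0.50, 0.50 and 0.72, while the median standard errors were 0.31, 0.13, 0.08 and 0.09.

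The same held library by library. The median FPKM of Z genes divided by that of autosomal genes was 0.758 to 0.874 in males (median 0.838) and 0.528 to 0.597 in females (median 0.576). Every male library lay above every female library, with means of 0.831 ± 0.043 in males and 0.569 ± 0.025 in females (SD, n = 10 each; two-sided permutation test with 100000 resamples, p = 6e-05). Within each sex the ratio also went with embryo number. Males numbered up to 20 were at 0.758 to 0.823 and those from 22 at 0.854 to 0.874. Females numbered up to 20 were at 0.528 to 0.578 and those from 22 at 0.5705 to 0.597. The female ranges overlapped. The factors by which whole libraries were scaled divided at the same numbers. They were 0.909 to 0.989 in libraries numbered up to 20 and 1.01 to 1.06 in those from 22. The cause of these differences was not tested. Even in males the typical Z gene stood below the typical autosomal gene.

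In 193 of the 679 Z genes (28.4%) every male exceeded every female in scaled level. Among called Z genes with a symbol and a mean of at least 1 FPKM in the higher sex, the 10 highest log2 fold changes lay close to 1. PPIC, which encodes the protein-folding enzyme cyclophilin C (ENSGALG00000005346, chromosome Z, 81573781 to 81579815, GRCg6a), had 62.5, 70.2 and 92.2 FPKM as lowest, median and highest values in males, against 27.95, 35.6 and 38.5 FPKM in females. The sexes did not overlap, and the log2 fold change was 1.13 ± 0.11 (SE; limma adjusted p = 4.8e-08). FAM172A (chromosome Z, 58296404 to 58559444) had 26.8, 30.6 and 38.4 FPKM in males, against 12.8, 14.9 and 17.0 FPKM in females, again without overlap (log2 fold change 1.07 ± 0.06). XPA, which encodes the damage-recognition protein of nucleotide excision repair, had 104, 123 and 149 FPKM in males, against 50.9, 59.1 and 77.7 FPKM in females (0.99 ± 0.10). Its lowest male was well above its highest female.

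The other leading Z genes belonged to several functions. SRFBP1, a binding partner of serum response factor, was higher by 1.03 ± 0.09, and MRPL50, a protein of the mitochondrial ribosome, by 0.97 ± 0.10. FANCG, of the Fanconi anaemia DNA repair complex, was higher by 0.97 ± 0.08, TPGS2, a subunit of the tubulin polyglutamylase, by 0.98 ± 0.09, and AK6, a nuclear adenylate kinase, by 0.96 ± 0.09. TMC1, the mechanotransduction channel of hair cells, stood at 1.33 to 2.87 FPKM in males and 0.683 to 1.18 FPKM in females and was higher by 1.10 ± 0.13. CHRNA6, a subunit of neuronal acetylcholine receptors, was higher by 1.04 ± 0.28 (limma adjusted p = 0.036), but that call held in only 9 of the 20 fits that left out 1 library.

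**Figure D2:**
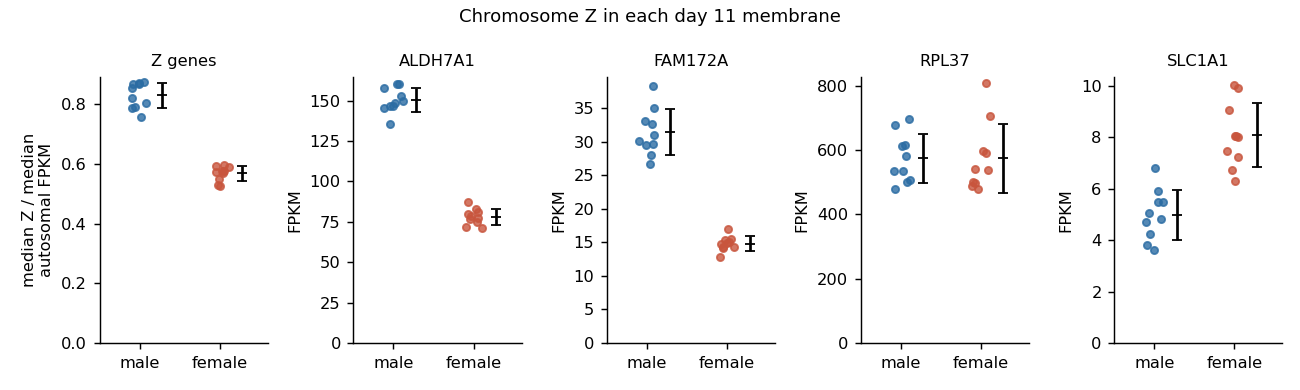
Each point is 1 day 11 membrane, with the mean ± SD beside each group (10 males on the left, 10 females on the right of each panel). The first panel gives the ratio of the median Z FPKM to the median autosomal FPKM, and the others give FPKM of ALDH7A1 and FAM172A, where the sexes do not overlap, of RPL37, where they coincide, and of SLC1A1, where the males are lower.

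The Z lists that follow are read against all Z genes tested, of which 52.7% were higher and 1.91% lower in males, at a median log2 fold change of 0.50; no list was tested against other Z genes. Of 13 tested translation and ribosome genes on Z, 10 were higher in males, 3 were not called, and the median log2 fold change was 0.67. RPS6 and RPS23, proteins of the small ribosomal subunit, were higher by 0.73 ± 0.09 and 0.73 ± 0.13, and RPL17, of the large subunit, by 0.72 ± 0.11. MRPS30, a mitochondrial ribosomal protein, had 30.7, 34.7 and 36.6 FPKM in males, against 14.8, 18.5 and 20.1 FPKM in females (0.90 ± 0.05). MRPL17 was higher by 0.81 ± 0.13, and the RNA helicase SKIV2L2 by 0.76 ± 0.06; SKIV2L2 shares exon positions with DHX29 and PLPP1.

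RPL37, of the large ribosomal subunit, was among those not called. It had 477, 559 and 697 FPKM in males, against 479, 539 and 810 FPKM in females. The ranges coincided, and the log2 fold change was 0.00 ± 0.12. PAIP1, which binds the poly(A)-binding protein, was at 0.13 ± 0.05 and was not called.

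Of 14 tested mitochondrial and energy genes on Z, 7 were higher in males, near the 52.7% of all Z genes, 7 were not called, and the median was 0.27. ALDH7A1, an aldehyde dehydrogenase of lysine breakdown, had 136, 149 and 160 FPKM in males, against 70.9, 77.9 and 87.2 FPKM in females (0.94 ± 0.04; limma adjusted p = 5.9e-15). The ranges lay far apart. NDUFS4, a subunit of respiratory complex I, was higher by 0.93 ± 0.08, and COX7C, of cytochrome oxidase, by 0.89 ± 0.12. OXCT1, which opens ketone bodies to oxidation, had 67.3, 78.8 and 89.8 FPKM in males, against 67.7, 84.0 and 91.8 FPKM in females, with a log2 fold change of -0.04 ± 0.05. NNT, the mitochondrial transhydrogenase, was at 0.19 ± 0.14 and ACO1, the iron-regulated aconitase, at 0.08 ± 0.04; neither was called.

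Of 17 tested genes of growth factor and cytokine signalling on Z, 2 were higher in males and 15 were not called. Over all Z genes 52.7% were called higher, and the median of the list was 0.23 beside 0.50. At an unadjusted p below 0.05 by limma 7 of the 17 were higher, beside 488 of all 679 Z genes. PRLR, the prolactin receptor, had 2.01, 3.67 and 5.72 FPKM in males, against 1.44, 2.16 and 2.78 FPKM in females, which overlapped (0.75 ± 0.18; limma adjusted p = 0.014). GDNF, a neurotrophic ligand, was higher by 0.94 ± 0.17. TEK, the angiopoietin receptor of endothelium, had 31.5, 40.1 and 49.5 FPKM in males, against 28.2, 39.3 and 49.9 FPKM in females. Its ranges coincided, at a log2 fold change of -0.03 ± 0.08. VLDLR, the lipoprotein and reelin receptor, was at -0.05 ± 0.08, GHR, the growth hormone receptor, at 0.07 ± 0.12, and IL6ST, the shared receptor of interleukin-6 type cytokines, at 0.30 ± 0.11; none of these was called.

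In the TGF-beta and hedgehog list 4 of 7 tested genes were higher, near the 52.7% of all Z genes, 3 were not called, and the median was 0.37. PTCH1, the hedgehog receptor, was higher by 0.48 ± 0.08. The orphan nuclear receptor NR2F1 was higher by 0.43 ± 0.09 and the endocytic adaptor DAB2 by 0.34 ± 0.08. MEF2C, a muscle and endothelial transcription factor, was at 0.45 ± 0.14 and MAP3K1 at 0.37 ± 0.13, and both missed the threshold. With embryo number as a covariate both were called higher (limma adjusted p = 0.020 and 0.0099).

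Of 17 tested matrix, adhesion and vascular genes on Z, 5 were higher, 1 was lower and 11 were not called, beside 52.7% higher and 1.91% lower over all Z genes, with a median of 0.21 beside 0.50. At an unadjusted p below 0.05 by limma 10 of them were higher and 1 lower, beside 488 and 21 of all 679 Z genes. The matrix proteases ADAMTS19 and ADAMTS12 were higher by 0.78 ± 0.14 and 0.60 ± 0.14. F2RL2, a protease-activated receptor, had 10.1, 11.2 and 15.8 FPKM in males, against 5.69, 7.74 and 8.42 FPKM in females (0.65 ± 0.08), with no overlap. THBS4, a thrombospondin of the matrix, was the lower one at -0.57 ± 0.15. LOX, the collagen cross-linking enzyme, which the annotation lists as a pseudogene, was at 0.33 ± 0.16 without a call.

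Of 11 steroid, retinoid and sterol genes, 6 were higher, near the 52.7% of all Z genes, 5 were not called, and the median was 0.56. STARD4, a cholesterol carrier, was higher by 0.77 ± 0.08, HSD17B4, a peroxisomal enzyme of fatty acid and steroid oxidation, by 0.74 ± 0.05, and HSD17B3, which makes testosterone in the testis, by 0.67 ± 0.14. HMGCS1, an early enzyme of cholesterol synthesis, was at -0.02 ± 0.10 and was not called.

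Immune genes of Z were few, with 3 of 4 tested members higher (52.7% over all Z genes) and 1 not called, at a median of 0.45. The prostaglandin receptor PTGER4 was higher by 0.43 ± 0.10 and the complement component C7 by 0.47 ± 0.13, the C7 call holding in 5 of the 20 fits that left out 1 library. CD180, a receptor of B cells and macrophages, had a mean of 0.88 FPKM in males and was higher by 1.34 ± 0.26.

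Of 9 chromatin and sex-determination genes on Z, 2 were higher, 1 was lower and 6 were not called, beside 52.7% higher and 1.91% lower over all Z genes, with a median of 0.21. At an unadjusted p below 0.05 by limma 4 of them were higher and 1 lower, beside 488 and 21 of all 679 Z genes. SMC2, of condensin, had 40.4, 49.8 and 56.3 FPKM in males, against 21.1, 27.1 and 29.2 FPKM in females (0.89 ± 0.06), with no overlap. SMC5, of the complex that SMC5 and SMC6 form, was higher by 0.71 ± 0.06. SMARCA2, a remodelling ATPase, was at 0.21 ± 0.08 and KANK1, an adhesion scaffold, at -0.05 ± 0.10; neither was called. With embryo number as a covariate SMARCA2 was called higher at 0.23 ± 0.05 (limma adjusted p = 0.0028).

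Near-equal Z genes with at least 10 FPKM, named for the smallest differences and so given without a test, included RPL37, RANBP3L, IER3IP1, NLN, SCAMP1 and HMGCS1. IER3IP1, a protein of the secretory pathway, had 36.4, 40.6 and 43.6 FPKM in males, against 36.1, 39.7 and 47.5 FPKM in females. SCAMP1, a membrane protein of secretory vesicles, had 27.2, 31.6 and 37.3 FPKM in males, against 28.6, 31.8 and 35.3 FPKM in females.

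The 13 Z genes lower in males gathered in 1 stretch. The window of 20 to 30 Mb was set after their positions were seen. Of 103 Z genes in it with a mean of at least 1 FPKM, 46 were higher and 12 lower in males, with a median log2 fold change of 0.30. In the other 529 genes 308 were higher and 1 was lower, with a median of 0.53. That 1 gene was ELOVL7, a fatty acid elongase, at -0.21. Medians of the other windows of 10 Mb ran between 0.43 and 0.72.

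A pair of non-coding RNAs of that stretch, named here after their values were seen, was nearly limited to females. ENSGALG00000051419 (chromosome Z, 27317307 to 27383989) had 0, 0.0438 and 0.459 FPKM in males, against 33.1, 38.6 and 45.9 FPKM in females. ENSGALG00000050012 (27177112 to 27307449) had at most 0.0203 FPKM in males, against 2.46 to 5.10 FPKM in females. These were the 2 Z genes in which every male lay below every female (0.295%). No male reached the 0.5 FPKM of the filter in either, so both passed it through females alone. Their lack of overlap is therefore a description. In chickens the male hypermethylated region of Z, close to DMRT1, is known to give rise to non-coding RNA in females, and the annotation used here carries no name for either gene.

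The coding genes lower in males were of low level. SLC1A1, a glutamate transporter (27065681 to 27123343), had 3.62, 4.95 and 6.80 FPKM in males, against 6.31, 8.04 and 10.03 FPKM in females (-0.70 ± 0.10; limma adjusted p = 3.6e-05), with a slight overlap. RLN3, a relaxin-family hormone, was at -0.99 ± 0.25, GLDC, of the glycine cleavage system, at -0.86 ± 0.18, MAP1B, a microtubule-associated protein, at -0.88 ± 0.20, and HOMER1, a synaptic scaffold, at -0.77 ± 0.16. RLN3 missed the threshold when female replicate 46 was left out (-0.92, limma adjusted p = 0.0505). DMRT1, the testis-determining transcription factor of the chicken (25949442 to 26005324), had 0.409, 0.780 and 1.00 FPKM in males, against 0.581, 1.35 and 2.78 FPKM in females. Its ranges overlapped, and its call (-0.85 ± 0.23; limma adjusted p = 0.046) held in 6 of the 20 fits that left out 1 library.

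**Figure D3:**
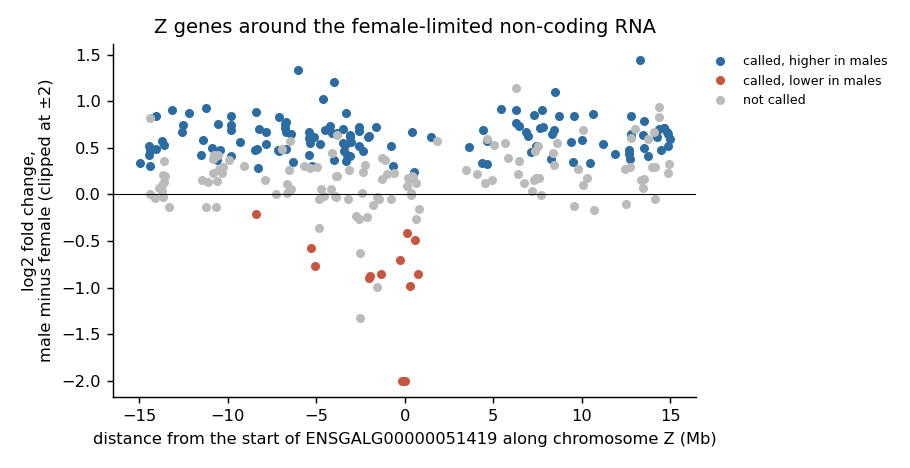
Log2 fold change of each tested Z gene within 15 Mb, male minus female at day 11 (y axis, clipped at ±2), against distance in Mb from the start of the non-coding RNA ENSGALG00000051419 (x axis). Blue points are called higher and red points lower in males, and grey points are not called; the red points lie within 10 Mb of that start, most of them within 3 Mb.

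W genes gave the largest differences. They held 0.000706 to 0.00209% of summed FPKM in males and 0.320 to 0.360% in females. Of 124 W genes listed, 49 passed the filter on low values, a filter they could pass through females alone, so their calls are a check of the sex labels more than a result. In 44 of the 49 (89.8%) every male lay below every female, and 9 were listed at 0 in all males. All 20 libraries matched their labelled sex in this respect.

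HINTW, a W-linked relative of the HINT hydrolases whose copies are near-identical and may share reads, was the most abundant, with 0.245, 1.06 and 5.34 FPKM in males, against 969, 1190 and 1392 FPKM in females. HNRNPKL, related to an RNA-binding protein, had at most 0.0806 FPKM in males, against 61.0 to 75.2 FPKM in females. SPIN1W, a histone reader, had at most 0.0793 FPKM in males, against 13.1 to 16.7 FPKM in females. The W copy of UBAP2 had at most 0.113 FPKM in males, against 11.0 to 16.8 FPKM in females, and SMAD7B, related to the inhibitory SMADs, had at most 0.0997 FPKM in males, against 6.49 to 8.05 FPKM in females. Genes without a symbol, ENSGALG00000048286, ENSGALG00000043758 and ENSGALG00000040263, stood at medians of 0.129, 0.0585 and 0.0622 FPKM in males, against 166, 146 and 101.5 FPKM in females. W genes in general thus stood at or near 0 in males.

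A single W gene ran the other way and is named after its value was seen. ENSGALG00000047434 (chromosome W, 3570685 to 3580610) had 2.81, 3.20 and 4.44 FPKM in males, against 1.59, 1.91 and 2.88 FPKM in females (log2 fold change 0.74 ± 0.11). Males carry no W, and the source of the reads counted there in males was not tested.

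Genes known to have a W partner were examined for their Z copy. Of 10 tested, 9 were higher in males (52.7% over all Z genes) and 1 was not called, with a median of 0.55 beside 0.50 for all Z genes. These genes were well expressed, the lowest being ARRDC3 with means of 31.7 FPKM in males and 21.9 FPKM in females. Among Z genes from 10 to 100 FPKM 65.4% were called higher, and among those at 100 FPKM or more 81.8%. ATP5A1Z, the alpha subunit of ATP synthase, had 334, 346 and 377 FPKM in males, against 165, 187 and 202 FPKM in females (0.89 ± 0.05), far apart. VCP, an ATPase that unfolds ubiquitinated proteins, was higher by 0.72 ± 0.06. SMAD2Z, a transducer of TGF-beta signals, and CHD1Z, a chromatin remodeller, both outside the list, were higher by 0.82 ± 0.06 and 0.69 ± 0.06. TMED7, of early secretory transport, was at 0.16 ± 0.05 and was not called.

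SPIN1 was the protein-coding gene whose copies could be paired by name. SPIN1Z had 116, 133 and 144 FPKM in males, against 61.3, 73.5 and 80.7 FPKM in females. Adding SPIN1W gave sums of 116, 133 and 144 FPKM in males and 76.1, 88.3 and 95.6 FPKM in females. The W copy thus left the female sum below every male, at a male to female ratio of 1.52 (two-sided permutation test with 100000 resamples, p = 6e-05, adjusted over 3 pairs p = 0.00018). The other 2 pairs joined the Z copy of the small nucleolar RNA SNORD58 to each of its W copies, a class of RNA without a poly(A) tail. The ratios of the sums were 1.37 (adjusted p = 0.0228) and 1.21 (adjusted p = 0.14) in the same permutation test. Both pairs used the same Z copy, and each sum left out the other W copy, so neither gives the full female level. Female means were 7.815 FPKM for the Z copy and 2.46 and 3.80 FPKM for the W copies. The male mean of the Z copy was 14.1 FPKM, and the sum of all copies was not tested.

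**Figure D4:**
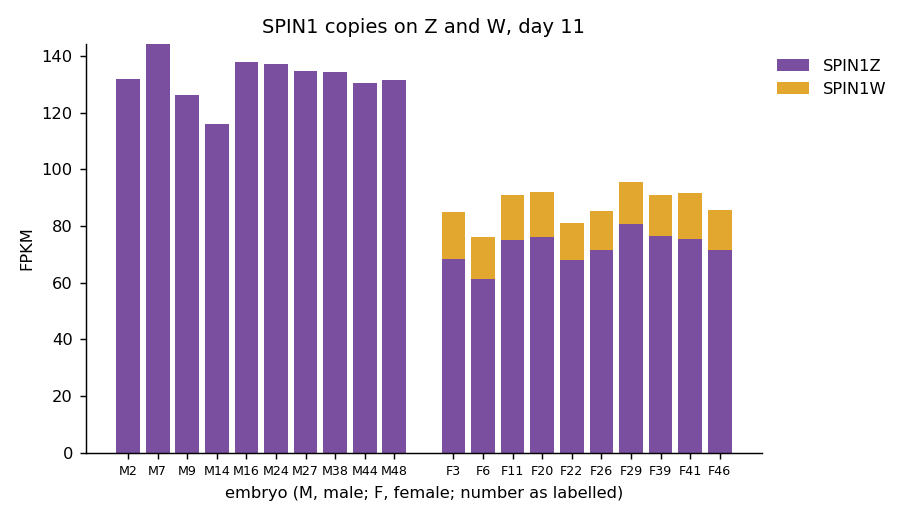
FPKM of SPIN1Z (violet) and SPIN1W (yellow, stacked) in each day 11 embryo, 10 males on the left and 10 females on the right. The stacked female bars reach 76.1 to 95.6 FPKM and stay below the lowest male bar, at 116 FPKM.

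Among the 1065 tested gene models without a position, 22 were higher (2.07%) and 28 lower (2.63%) in males. In 8 models (0.751%) every male lay above every female, and in 27 (2.54%) every male lay below. Models near 0 in males could pass the filter on low values through females alone, as W genes could, so their calls and their return at day 15 are a description. Of these, XLOC_027736 had at most 0.0752 FPKM in males, against 7.95 to 20.04 FPKM in females, and XLOC_027719 had at most 0.0901 FPKM in males, against 8.75 to 16.0 FPKM in females. XLOC_028421 was higher in males by 1.21 ± 0.26 and XLOC_028170 by 1.09 ± 0.18. The chromosomes of these models are not given in the file.

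Autosomal differences were few and small. The 56 called genes (0.402%), of which 46 have a symbol, lay on 21 autosomes, and the median size of their log2 fold change was 0.37. It was under 0.5 in 39 genes and at least 1 in 5. In 2 genes (0.0144%) every male lay below every female, and in none did every male lie above. Of the 56 calls, 34 held in each of the 20 fits that left out 1 library, 6 higher and 28 lower in males. With embryo number as a covariate 24 autosomal genes were higher and 73 lower. Without male replicate 7 the genes higher in males numbered 7.

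Among the autosomal genes higher in males, ITGA11, a collagen-binding integrin of fibroblasts (chromosome 10, 19594940 to 19629103), had 4.47, 6.16 and 8.64 FPKM in males, against 3.20, 4.31 and 6.03 FPKM in females (0.50 ± 0.12; limma adjusted p = 0.011). The ranges overlapped. PAX9, a paired-box transcription factor of skeletal and pharyngeal development, had 0.799, 1.17 and 2.16 FPKM in males, against 0.159, 0.601 and 1.18 FPKM in females (0.94 ± 0.25). PRRG3, a membrane protein with a gamma-carboxyglutamate domain, was higher by 0.34 ± 0.08, and PDE4B, a cyclic AMP phosphodiesterase, by 0.30 ± 0.07. DSCC1, which loads the replication clamp for sister chromatid cohesion, was higher by 0.34 ± 0.09, CHST3, a chondroitin sulfotransferase, by 0.25 ± 0.06, and the transcription factor GTF2IRD1 by 0.23 ± 0.06. PAX9, DSCC1, CHST3 and GTF2IRD1 held in 12, 13, 16 and 6 of the 20 fits that left out 1 library.

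gga-mir-1707, a microRNA precursor, had the largest autosomal value, with 0, 0.970 and 2.72 FPKM in males, against 0, 0 and 0.312 FPKM in females. Its call (2.13 ± 0.59; limma adjusted p = 0.048) held in 6 of those 20 fits, and mRNA libraries do not measure the mature microRNA. No female reached the level of the filter on low values, so gga-mir-1707 passed it through males alone. Its call is therefore a description. The same limit holds for DPYSL5 and DOK7, named after their values were seen. DPYSL5, called higher in males, had at most 0.385 FPKM in females. DOK7, called lower in males, had at most 0.420 FPKM in males. These genes are included in the autosomal counts given here.

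Among the autosomal genes lower in males, CDH17, a cadherin of intestinal epithelium (chromosome 2, 125879843 to 125906330), had 0.375, 0.753 and 2.51 FPKM in males, against 2.05, 2.43 and 4.13 FPKM in females (-1.44 ± 0.29; limma adjusted p = 0.0023). Most males lay below the lowest female, but the ranges overlapped. OVOL2, a transcription factor that maintains epithelium, had 8.04, 10.1 and 13.5 FPKM in males, against 11.5, 13.4 and 15.8 FPKM in females (-0.43 ± 0.08). GTSF1, a germ-line factor of the piRNA pathway, had 1.43, 3.95 and 7.17 FPKM in males, against 5.53, 7.69 and 14.2 FPKM in females (-1.05 ± 0.20). ZP1, a gene of the egg coat listed by the annotation as a pseudogene, was at -1.22 ± 0.25.

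GSTA3, a glutathione transferase of a family of similar copies, had 43.8, 57.9 and 85.98 FPKM in males, against 68.9, 85.4 and 137 FPKM in females (-0.62 ± 0.16). FGF9, a growth factor that promotes testis development in mice, was at -0.58 ± 0.14 and SETD4, a lysine methyltransferase, at -0.50 ± 0.12. DGAT2, which completes triglyceride synthesis, was at -0.44 ± 0.12 and PGLYRP2, an enzyme that cleaves bacterial peptidoglycan, at -0.47 ± 0.13. GSTA3, PGLYRP2 and DGAT2 held in 11, 9 and 6 of the 20 fits that left out 1 library.

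Marker lists of cell types showed no autosomal member called by limma in either direction. At an unadjusted p below 0.05, 335 of all 13935 autosomal genes tested were higher and 518 lower in males. At that threshold the epithelial list (17 tested) held 0 genes higher and 3 lower, and the fibroblast list (20 tested) 3 higher and 0 lower. The leukocyte list held 1 higher and 2 lower, and the other cell type lists held at most 1 such gene each. Of all 13935 autosomal genes tested, 6074 had a positive log2 fold change. Among the 17 epithelial markers 15 had a negative log2 fold change, with a median of -0.15 beside -0.02 for all autosomal genes. Of the 20 fibroblast markers 4 were negative, with a median of 0.12, and of the 15 autosomal endothelial markers 4, with a median of 0.05. The part of such differences in the lower CDH17 and OVOL2 and the higher ITGA11 was not tested. Leukocyte (20 tested), erythroid (14), smooth muscle (17 autosomal), skeletal and cardiac muscle (8), liver and yolk sac (7 autosomal) and neural genes (9) had medians between -0.08 and 0.05. Negative values were held by 13, 9, 11, 4, 3 and 4 of their genes, in that order. TPM2, a tropomyosin on Z, was the smooth muscle gene called, at 0.61 ± 0.08, and RBP4, the retinol carrier, also on Z, the liver gene, at 0.94 ± 0.26, a call that held in 4 of the 20 fits that left out 1 library.

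The sex hormone list and the gonad and germ cell list held no autosomal call either. GTSF1, ZP1, FGF9 and STAG3, autosomal genes called lower in males, are in neither list. Of 22 autosomal sex hormone receptor and synthesis genes none was called by limma, with a median of -0.02. HSD17B4 on Z, given above, was the list's called member. At an unadjusted p below 0.05 there were 0 higher and 1 lower, SOX9 (-0.35 ± 0.14). Of 7 tested gonad and germ cell genes none was called. SOX9 is in both lists and was also the 1 lower gene here at an unadjusted p below 0.05. LHX9 and NANOG of the gonad list stood at 0 in all 20 libraries. Cell cycle genes (26 tested, 4 negative, median 0.05) and interferon and antigen presentation genes (22 tested, 10 negative, median 0.01) held no called member. At an unadjusted p below 0.05 they held 2 higher cell cycle genes and 1 lower interferon gene, beside 335 higher and 518 lower of all 13935 autosomal genes.

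Day 15 gave a second look in separate embryos, on the same 15875 genes. Of the 358 Z genes higher in males at day 11, 317 were called higher again, 88.6% of the day 11 list and 86.8% of the 365 called at day 15 (53.8% of Z genes). Of the 13 lower Z genes 9 were called again, 69.2% of that list and 56.2% of the 16 called at day 15 (2.36% of Z genes). The female-limited non-coding RNAs of Z passed the filter through females alone, so any return of theirs is a description. Of the 48 W genes lower in males 47 were called again, 97.9% and 100% of the lists (95.9% of W genes). Males carry no W, so that return is a check of the sex labels at day 15 more than a result. For models without a position the figures were 16 of 22 higher (1.6% called at day 15) and 27 of 28 lower (2.82%).

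Autosomal calls came back in 1 direction. None of the 13 genes higher in males at day 11 was called by limma at day 15, when 23 were called higher (0.165%); 8 kept their sign and 1 had an unadjusted p below 0.05. Of the 43 lower in males, 11 were called lower again, 25.6% of each list (0.309% of autosomal genes at day 15), 37 kept their sign and 20 had an unadjusted p below 0.05. The median log2 fold change of these 43 was -0.37 at day 11 and -0.17 at day 15. That of the 13 higher genes was 0.50 at day 11 and 0.10 at day 15. Both sets were chosen by their day 11 change, and the directions were not tested against each other.

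The 11 genes are named after their values were seen. ENSGALG00000014589 (chromosome 28, 2309232 to 2317220), a coding gene without a symbol, had 82.1, 92.2 and 104 FPKM in males, against 119, 134 and 160 FPKM in females, with no overlap, and a log2 fold change of -0.54 ± 0.08 at day 11 and -0.55 ± 0.06 at day 15. FBXO9, a subunit that directs ubiquitin ligases, had 39.7, 42.8 and 48.4 FPKM in males, against 46.5, 53.0 and 56.0 FPKM in females, and was at -0.27 ± 0.04 and -0.25 ± 0.04 at the days in order. These are the 2 autosomal genes whose scaled levels did not overlap at day 11, although the FPKM of FBXO9 overlapped slightly before scaling.

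Among the other 9 genes, STAG3, a cohesin subunit of meiosis, was at -0.42 ± 0.08 at day 11 and -0.31 ± 0.07 at day 15. SMC6, the partner of SMC5, was at -0.39 ± 0.08 and -0.37 ± 0.06; it shares exon positions with GEN1. SMARCA1, a remodelling ATPase, was at -0.32 ± 0.08 and -0.25 ± 0.06, with 15 of the 20 fits holding its day 11 call, and CETN1, a centrin, at -0.36 ± 0.08 and -0.28 ± 0.08. ZDHHC6, a palmitoyltransferase, was at -0.28 ± 0.05 and -0.27 ± 0.05, TMEM230, a vesicle membrane protein, at -0.26 ± 0.06 and -0.26 ± 0.05, and SPG7, a mitochondrial protease, at -0.16 ± 0.04 and -0.13 ± 0.04. GLMN, which regulates ubiquitin ligases and shares exon positions with BTBD8, C8H1ORF146 and RPAP2, was at -0.28 ± 0.07 and -0.34 ± 0.08, and ENSGALG00000026776 at -0.39 ± 0.08 and -0.37 ± 0.10.

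**Figure D5:**
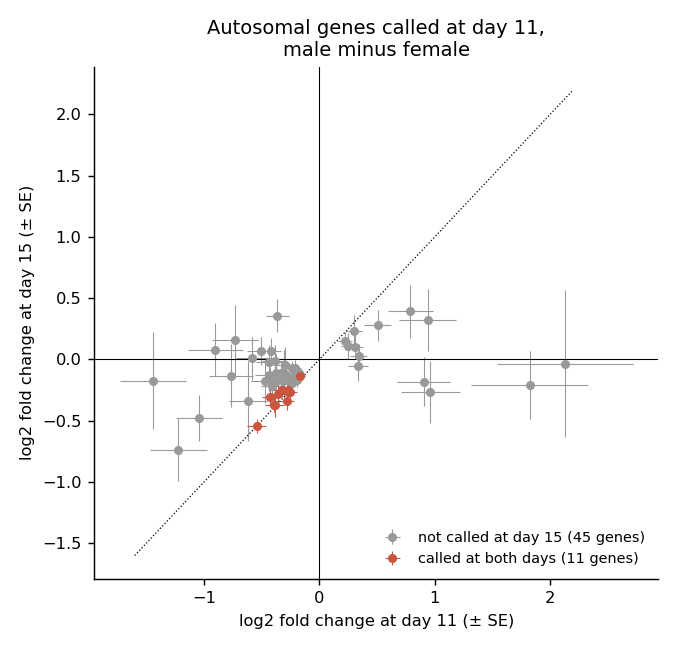
Log2 fold change, male minus female, at day 11 (x axis) and at day 15 (y axis) of the 56 autosomal genes called at day 11, with standard errors and a dotted line of equal change. The 11 genes called in the same direction at both days (red) lie near the line on the lower left, and none of the 13 genes on the right is among them.

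The sex difference itself changed with day in few genes. In the test of the sex by day interaction limma called 5 of 15875 genes (0.0315%), none of them autosomal. At an unadjusted p below 0.05 there were 390 of 13935 autosomal genes and 498 of all 15875. Both are smaller shares than that threshold passes by chance. Among the 56 autosomal genes called at day 11, 16 had an unadjusted interaction p below 0.05 by limma, and 0 an adjusted p below 0.05. Those 56 were chosen by their day 11 difference, which enters the interaction, so the 16 are a description. TMOD1, which caps actin filaments of red cells and muscle (chromosome Z, 70995461 to 71015584), had a log2 fold change of 0.89 ± 0.08 at day 11 and 1.61 ± 0.09 at day 15. Its means were 13.0 ± 1.2 FPKM in males and 6.92 ± 0.89 FPKM in females at day 11, and 12.1 ± 1.9 FPKM in males and 3.82 ± 0.32 FPKM in females at day 15 (SD, n = 10 each). The lower female level at day 15 thus went with the larger difference. The non-coding RNA ENSGALG00000048050 (chromosome Z, 26172920 to 26177361) was at 0.37 ± 0.22 at day 11, without a call, and at -1.93 ± 0.33 at day 15.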

How the data were processed

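Chorioallantoic membrane mRNA was sequenced from 40 embryos, per the labels. HISAT2, HTSeq and the build GRCg6a are named in the submitters' processing notes; their versions and the strand setting were not given in the sources used here, nor were batches. The deposited values are FPKM: they step in whole multiples of what 1 read is worth, in 100% of values under 200 reads within a tolerance of 0.01, which gave the depths. Positions and symbols come from the deposited annotation, in which 1796 of 26152 models have no position.

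Libraries were scaled by trimmed means of their log ratios, without weights (30% of ratios, 5% of levels trimmed), and taken as log2(value + 0.1). Genes with at least 0.5 FPKM in 5 of the 20 libraries were kept (15875, leaving 10277 untested). Male minus female was tested in limma (version 3.58.1 under R 4.3.3, with statmod 1.5.0, intensity trend, robust moderation), with Benjamini-Hochberg adjustment over all tested genes. Day 15 was fitted alike, and the interaction over 40 libraries. In simulated data for the day 11 comparison, over 15875 genes, 96% of 100 changes of 1 and 80% of 100 changes of 0.5 (log2) were recovered. Of 184 calls, 8 were of unchanged genes. The changes were put only into autosomal genes with a female mean above 1 on the log2 scale, so recovery among lower genes was not tested. Values were drawn as independent normal noise around the female mean for both sexes, so the simulation held no sex difference on Z or W. Permutation tests used Python 3.11.15 with SciPy 1.17.1, numpy 2.4.6 and pandas 2.3.3.

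The comparison and the gene lists were chosen with earlier results of these data known. Named genes, with a symbol and at least 1 FPKM, were the 10 called autosomal genes with the largest change in each direction (8 qualified as higher), 10 higher and 6 lower Z genes, 8 W genes, 6 near-equal Z genes, and up to 3 called and 2 uncalled members of each list; other members of lists, SMAD2Z, CHD1Z and those said to be so were chosen after values were seen. Some genes that this rule takes are not reported here. No sequences are shown. Alternatives changed the pseudocount, the filter, the scaling, the covariate, the libraries and the moderation.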

Additional observations from a re-analysis of the deposited data

Results flagged for a closer look

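In 230 groups of 10 libraries, 11 held a library far from the others of its sex, where chance flags about 1 in 20. PGLYRP2 had 5.99 FPKM in female replicate 20, against at most 4.38 FPKM in the other females, and without it the gene was at -0.40 and missed the threshold (limma adjusted p = 0.0654). Female replicate 6 was the highest of its sex for 2 Z genes, AK6 at 8.01 FPKM (others up to 6.48) and MRPL17 at 111 FPKM (others up to 75.1), and without it their log2 fold changes were 1.03 and 0.90. F2RL2 had 15.8 FPKM in male replicate 2, against at most 12.2 FPKM in the other males, and OXCT1 had 67.3 FPKM in male replicate 9, against at least 73.4 FPKM in the others. CAMK4 had 0.463 FPKM in female replicate 46, against at least 1.00 FPKM in the other females. ENSGALG00000048050 had 1.54 FPKM in male replicate 9, against at least 2.37 FPKM. Female-limited genes gave the rest: SMAD7B at 0.0997 FPKM in male replicate 16, XLOC_027863 at 0.00593 FPKM in male replicate 27 and XLOC_027736 at 0.0752 FPKM in male replicate 38, and XLOC_027758 at 1.32 FPKM in female replicate 22, against at least 2.61 FPKM in the other females.

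The sex difference at day 15 minus that at day 11 was called in 5 genes by limma. It was 0.72 for TMOD1 (adjusted p = 0.0030) and -2.30 for ENSGALG00000048050 (adjusted p = 0.0070). It was 2.34 for XLOC_027758 (adjusted p = 0.00014), 1.58 for XLOC_027863 (adjusted p = 0.0016) and 1.56 for XLOC_027788 (adjusted p = 0.03). XLOC_027758 averaged 0 FPKM in males and 3.26 ± 0.91 FPKM in females at day 11, and 0 FPKM in males and 0.609 ± 0.340 FPKM in females at day 15 (SD, n = 10 each). In these 3 models males were at or near 0 at both days, so the change lies in the female level.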

How the results depend on the processing

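No paired analysis was possible because males and females share no embryo numbers. The labels number the day 11 embryos from 2 to 48. With that number as a covariate 24 autosomal genes were higher and 73 lower in males, and all 56 autosomal calls were among them. In the 9 embryos numbered up to 20 (5 males, 4 females), where fewer libraries enter the fit, 25 autosomal genes were lower, 225 Z genes higher, 5 Z genes lower and 5 models without a position higher in males. In the 11 numbered from 22 (5 males, 6 females) 7 Z genes were lower. The median log2 fold change of Z genes was 0.488 and 0.547 in these ranges. It was 0.398 with a pseudocount of 1 FPKM, which by construction shrinks low genes, and 0.306 with no filter on low values, which adds genes near 0. Requiring 1 FPKM in 10 libraries left 12 models without a position higher and 12 lower, from fewer models. At an unadjusted p below 0.05, 21 autosomal calls were seen again at day 15. Leaving out 1 library gave 496 to 532 calls in all, 7 (without male replicate 7) to 18 autosomal genes higher and 34 to 55 lower, 341 to 362 Z genes higher and 10 to 13 lower, 48 W genes lower, 19 to 23 models without a position higher and 27 to 30 lower, and a Z median of 0.479 to 0.522. No named gene reversed under any alternative run, and 90 of 1142 comparisons of a named gene with an alternative other than leaving out 1 library lost a call. No scaling moved the median of all genes by over 0.1. Genes under 1 FPKM are limited by depth.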
